A study of Mus musculus with 12 samples.

Results

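The comparison asked which responses of mouse splenic dendritic cells (DCs) to lipopolysaccharide (LPS) are larger or smaller without the microRNA miR-142, and whether the level before or after LPS accounts for the difference. It used all 12 arrays of the series in a crossed design of 4 groups of 3 arrays. These were unstimulated wild-type (WT), LPS-stimulated WT, unstimulated miR-142 knockout (KO) and LPS-stimulated KO cells. All mice were male, 10 weeks old and on the C57BL/6 background, and the WT mice were littermates of the KO mice. DCs were taken from single spleens by positive selection, so other cells that carry the selected marker can remain in each sample. For the LPS dose, the time under LPS and the make of the KO allele, the sources used here give no details. For each of 17097 genes, the difference in response is the log2 change with LPS in KO minus the log2 change with LPS in WT, estimated from the 4 group means. A value above 0 is a larger rise, or a smaller fall, in KO.

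LPS, a component of the outer membrane of Gram-negative bacteria, is sensed by the receptor TLR4. One adaptor branch of that receptor activates NF-kB and cytokine genes, and a second drives interferon beta, which in turn induces interferon-stimulated genes. DCs answer by secreting cytokines and chemokines and by raising co-stimulatory molecules for T cells. miR-142 is a microRNA of blood cells, and a microRNA lowers transcripts that pair with its seed (bases 2 to 8). The hairpin lies on mouse chromosome 11, at chr11:87756864-87756927 on the plus strand of GRCm38.p6, and gives a mature product from each arm. Both mature sequences, which the KO mice are labelled as lacking, are shown from RefSeq (GRCm38.p6), 5′ to 3′ with the seed in capitals.
mmu-miR-142a-3p: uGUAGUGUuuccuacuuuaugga
mmu-miR-142a-5p: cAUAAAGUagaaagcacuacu
The arms lie at chr11:87756903-87756925 and chr11:87756867-87756887. Their seeds differ, so that they pair with different target sites. No probe set used here was assigned to Mir142, and the genotype labels were therefore not checked against it.

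The deposited values are log2 signals, so a difference of 1 is 2 times the signal. The DC gene Itgax (CD11c) ran from 6.69 to 7.59 and the MHC class II invariant chain gene Cd74 from 8.62 to 10.16 over the 12 arrays, while the T cell receptor genes Cd3e and Cd3d ran from 3.20 to 4.5 and from 3.75 to 4.95. The descriptions of the samples speak of T cells, but the source, cell type and protocol labels speak of DCs, and the cells are treated as DCs here. Array 2 of the LPS-stimulated KO group stood apart. Its correlations with the other 11 arrays were 0.933 to 0.96, and its 3′ Gapdh probe set read 3.04 above the middle one, a gap of 1.53 to 1.86 elsewhere. It is 1 of the 3 arrays behind the KO LPS mean, and values without it stand beside the results it moves most. Over all genes, 0.205% were called higher in KO unstimulated and 0.275% after LPS, and 0.0468% and 0.17% lower (limma adjusted p under 0.05). Of 14 measured neutrophil markers, 4 were called higher in KO in each stimulation. The summed signal of the 14, in log2, was 7.80 to 10.00 on the WT arrays and 11.17 to 13.00 on the KO arrays. Of 14 measured NK cell markers, 5 were called higher in KO in each stimulation, and of 13 B and plasma cell markers 1, Jchain, which encodes the joining chain of secreted antibodies, was called lower in each (KO minus WT −4.03 unstimulated and −3.05 after LPS).

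No gene passed the test for a different LPS response between the genotypes. Of 17097 genes, 0 had a limma adjusted p under 0.05 (0%), with all arrays and again without KO LPS array 2. The smallest adjusted p was 0.969, and the smallest unadjusted limma p was 0.0003976. At an unadjusted p under 0.05 there were 639 genes (3.74%), of which 222 (1.3%) had a more positive response in KO and 417 (2.44%) a more negative one. Centring each array on its median turned this split to 368 more positive and 266 more negative, and moved the median over all genes from −0.02 to 0.02. Leaving out KO LPS array 2 gave 625 genes (3.66%), 241 more positive (1.41%) and 384 more negative (2.25%), whereas leaving out KO LPS array 1 or 3 gave 1098 or 1182. Precision set a limit on what could be seen. For the median gene the 95% interval of the difference in response reached 0.43 to either side, and for 15193 genes (88.9%) the whole interval lay between −1 and 1.

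To describe the responses that LPS itself changed, genes were chosen by the LPS effect averaged over both genotypes. This choice favours neither direction of the difference between them only where both genotypes spread alike. The median SD over genes was 0.145 on unstimulated and 0.129 on LPS arrays of WT, and 0.121 and 0.177 on those of KO. With the wider spread of the KO LPS arrays, the choice can favour larger responses in KO. The averaged effect called 137 genes (0.801%), with 120 higher (0.702%) and 17 lower (0.0994%) after LPS. This count was 84 without WT unstimulated array 2 and 216 without KO LPS array 2. Within single genotypes, LPS called 20 genes in WT, all higher (0.117%), and 67 in KO (0.392%), with 61 higher (0.357%) and 6 lower (0.0351%), and 16 genes were called in both. A call in KO alone does not show a difference from WT, which is what the direct test above addressed. A total of 48 genes were called higher with an averaged change of at least 1, and these are named LPS-induced here. No gene fell that far, so none was named for a repressed class.

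The LPS-induced genes had a higher median response in KO than in WT. Their median rise was 1.17 in WT and 1.40 in KO, or 1.53 in KO without KO LPS array 2. The median difference in response was 0.29 over these 48 genes, 0.31 without that array, and −0.02 over all genes. It was above 0 in 35 of the 48 (72.9%), or 36 without that array, against 7791 of 17097 genes (45.6%). Taken array by array against the unstimulated mean of the same genotype, the median rise was 1.26, 1.05 and 1.29 on the WT LPS arrays and 1.49, 1.34 and 1.51 on the KO LPS arrays. The KO values were all higher than the WT values, but the values of a genotype share the same unstimulated mean and are not independent responses. For the median LPS-induced gene taken singly, the 95% interval of the difference in response reached 0.75 to either side. The median of 0.29 varied with the arrays kept and the genes then chosen. It became 0.46 or 0.15 where unstimulated WT array 2 or 3 was dropped, 0.17 where WT LPS array 2 was, and 0.14 where unstimulated KO array 2 was. For each of these fits the LPS-induced genes were chosen anew, which gave 38, 51, 45 and 41 genes in turn. These medians therefore do not follow the same 48 genes. Among the 120 genes higher after LPS, 87 (72.5%) had a value above 0, and 14 of the 17 genes lower after LPS had a value below 0, which is a larger fall in KO.

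**Figure D1:**
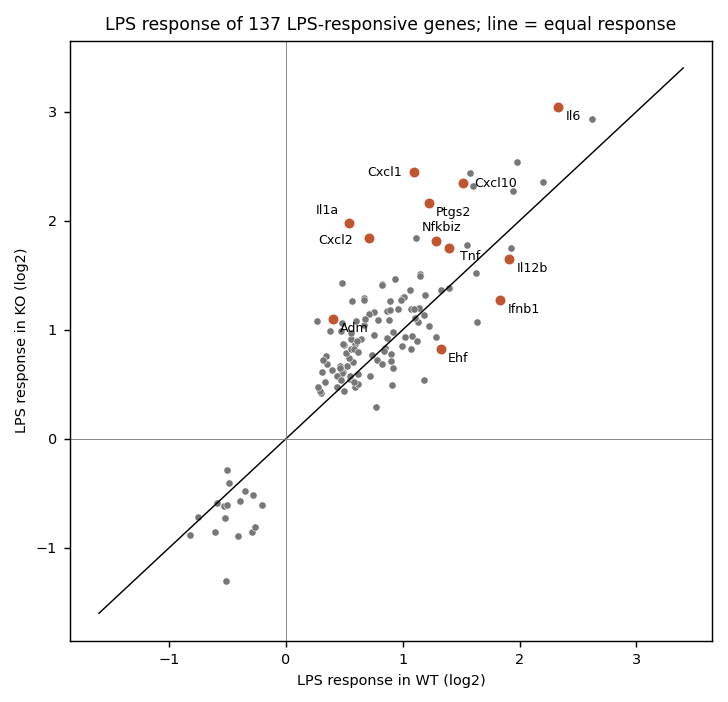
LPS response (log2 change) in KO on the vertical axis against that in WT on the horizontal axis for the 137 genes called for the averaged LPS effect, one point a gene, with the line of equal response. Of the 120 genes higher after LPS, 87 lie above the line, with Il1a, Cxcl1 and Cxcl2 (in colour with other named genes) at least 1 above it, while Ifnb1, Ehf and Il12b lie below it.

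At an unadjusted limma p under 0.05, with the arrays taken as unpaired, 5 of the 48 LPS-induced genes had a larger response in KO and 0 a smaller one. These counts depend on the fit, and taking arrays of the same number as a fixed replicate block within genotype made them 11 and 2. The 5 were Il1a, Cxcl1, Ptgs2, Nfkbiz and Cxcl2, and in 3 of them (Il1a, Cxcl1 and Cxcl2) the difference was at least 1. Over all 137 LPS-responsive genes the share under that p was 16.1%, against 3.74% over all genes. The calls for LPS and the test of the difference share 1 estimate of each gene's spread, so this share is not independent of how the genes were chosen.

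In what follows, groups are said not to overlap where all 3 arrays of one lie above all 3 of the other. Over all genes, KO lay above WT in this way in 8.99% unstimulated and 6.92% after LPS, and below it in 7.87% and 10.2%. LPS arrays lay above unstimulated arrays in 6.81% of genes in WT and 5.75% in KO, and below them in 5.09% and 7.71%.

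Chemokines that draw neutrophils through the receptor CXCR2, Cxcl1 and Cxcl2, were among those with the largest difference. Cxcl1 signals were 5.25, 4.30 and 4.34 in unstimulated WT, 6.41, 5.45 and 5.32 in WT with LPS, 3.24, 3.21 and 2.83 in unstimulated KO, and 5.68, 5.62 and 5.32 in KO with LPS. The unstimulated KO arrays lay below all the others, while the LPS arrays of both genotypes overlapped. The Cxcl1 response to LPS was 1.10 ± 0.29 (SE) in WT (limma adjusted p = 0.438) and 2.44 ± 0.29 in KO (adjusted p = 0.00253). The difference in response was 1.35 ± 0.42 with a 95% interval of 0.44 to 2.25 (limma unadjusted p = 0.00686, adjusted p = 0.969), and 1.31 without KO LPS array 2. The unstimulated KO mean lay under the level of the median gene (3.14), where the size of a change is less certain.

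Cxcl2 gave signals of 8.09, 7.63 and 7.68 in unstimulated WT, 8.81, 8.56 and 8.15 with LPS in WT, 7.83, 7.45 and 6.27 in unstimulated KO, and 9.33, 9.28 and 8.46 with LPS in KO. Unstimulated KO array 3 was the lowest of the 12, and the genotypes overlapped in both stimulations. Its LPS response was 0.71 ± 0.35 in WT and 1.84 ± 0.35 in KO (adjusted p = 0.049 by limma in KO), a difference of 1.13 ± 0.50 (limma unadjusted p = 0.0409, adjusted p = 0.969) that was 1.00 without KO LPS array 2. On the same KO arrays the median signal of the 14 neutrophil markers was 7.76, 8.24 and 5.20 unstimulated and 7.38, 7.55 and 5.13 with LPS, against 2.69 to 4.13 in WT. Neutrophils themselves make Cxcl2 and Il1b, and the part of neutrophil transcripts in these responses was not tested. More cells of a type and more RNA per cell cannot be told apart in these bulk samples.

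The 250 bases before the start of Cxcl1, Cxcl2 and, for contrast, Ifnb1, whose estimated response was smaller in KO, are shown from RefSeq (GRCm38.p6), 5′ to 3′ on the strand of the gene, because NF-kB sites in such promoters are textbook targets of TLR4 signalling. Capitals mark matches to the kB motif (GGGA, then 4 bases of any kind, then CC) on either strand, overlapping matches run together.
Cxcl1: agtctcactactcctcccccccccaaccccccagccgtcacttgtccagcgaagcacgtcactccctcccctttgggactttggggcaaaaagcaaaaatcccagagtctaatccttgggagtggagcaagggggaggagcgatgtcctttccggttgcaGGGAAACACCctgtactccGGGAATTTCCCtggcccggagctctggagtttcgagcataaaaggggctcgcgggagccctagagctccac
Cxcl2: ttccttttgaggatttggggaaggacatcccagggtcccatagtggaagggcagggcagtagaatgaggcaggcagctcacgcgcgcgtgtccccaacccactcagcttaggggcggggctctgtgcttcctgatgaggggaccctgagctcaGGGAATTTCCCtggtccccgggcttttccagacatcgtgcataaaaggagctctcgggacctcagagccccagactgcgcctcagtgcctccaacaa
Ifnb1: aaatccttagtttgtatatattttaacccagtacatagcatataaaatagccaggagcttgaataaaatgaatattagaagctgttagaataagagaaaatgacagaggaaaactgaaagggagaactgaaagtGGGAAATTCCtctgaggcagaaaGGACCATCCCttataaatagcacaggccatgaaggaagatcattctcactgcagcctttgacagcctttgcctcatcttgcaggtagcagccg
They lie at chr5:90890995-90891244 (plus strand), chr5:90903649-90903898 (plus strand) and chr4:88522795-88523044 (minus strand). Cxcl1 and Cxcl2, close together on chromosome 5, share the letters GGGAATTTCC, which begin 71 and 97 bases before the start. The Ifnb1 window holds GGGAAATTCC, 116 bases before the start. The motif occurred in 20.7% of 32851 promoter windows of 300 bases (250 before and 50 after the start). Of the 12 LPS-induced genes named for the direction of their difference, 9 had a promoter entry, and 5 of these held the kB motif at the first listed start, among genes of both directions. A match is a description of letters and not a measured site.

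Il1a, which encodes the alarm cytokine interleukin-1 alpha, had the largest difference among the LPS-induced genes. Its signals were 5.73, 5.4 and 5.67 in unstimulated WT, 6.60, 5.91 and 5.90 in WT with LPS, 3.99, 4.62 and 4.26 in unstimulated KO, and 6.06, 6.91 and 5.83 in KO with LPS. Every unstimulated KO array was below every WT array, and after LPS the genotypes overlapped. The response was 0.54 ± 0.27 in WT and 1.98 ± 0.27 in KO, which passed in KO (limma adjusted p = 0.00556). The difference was 1.44 ± 0.38, with a 95% interval of 0.61 to 2.27 (limma unadjusted p = 0.00259, adjusted p = 0.969), and 1.12 without KO LPS array 2, the highest KO LPS array for this gene. Il1b, the second interleukin-1 gene, moved otherwise. Its response was 0.56 ± 0.35 in WT and 0.30 ± 0.35 in KO, and the difference of −0.26 turned to 0.15 without that array.

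Ptgs2 encodes the inducible cyclooxygenase of prostaglandin synthesis. Its signals were 6.59, 6.37 and 6.50 in unstimulated WT, 7.72, 7.74 and 7.66 in WT with LPS, 6.26, 5.18 and 5.61 in unstimulated KO, and 7.90, 8.09 and 7.52 in KO with LPS. KO was below WT on all unstimulated arrays, and the genotypes overlapped after LPS. Ptgs2 rose by 2.16 ± 0.22 in KO (limma adjusted p = 0.000855), beside 1.22 ± 0.22 in WT (adjusted p = 0.063). The difference was 0.94 ± 0.31 (limma unadjusted p = 0.011, adjusted p = 0.969), and 0.81 without KO LPS array 2. The second probe set gave 0.63 ± 0.46.

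**Figure D2:**
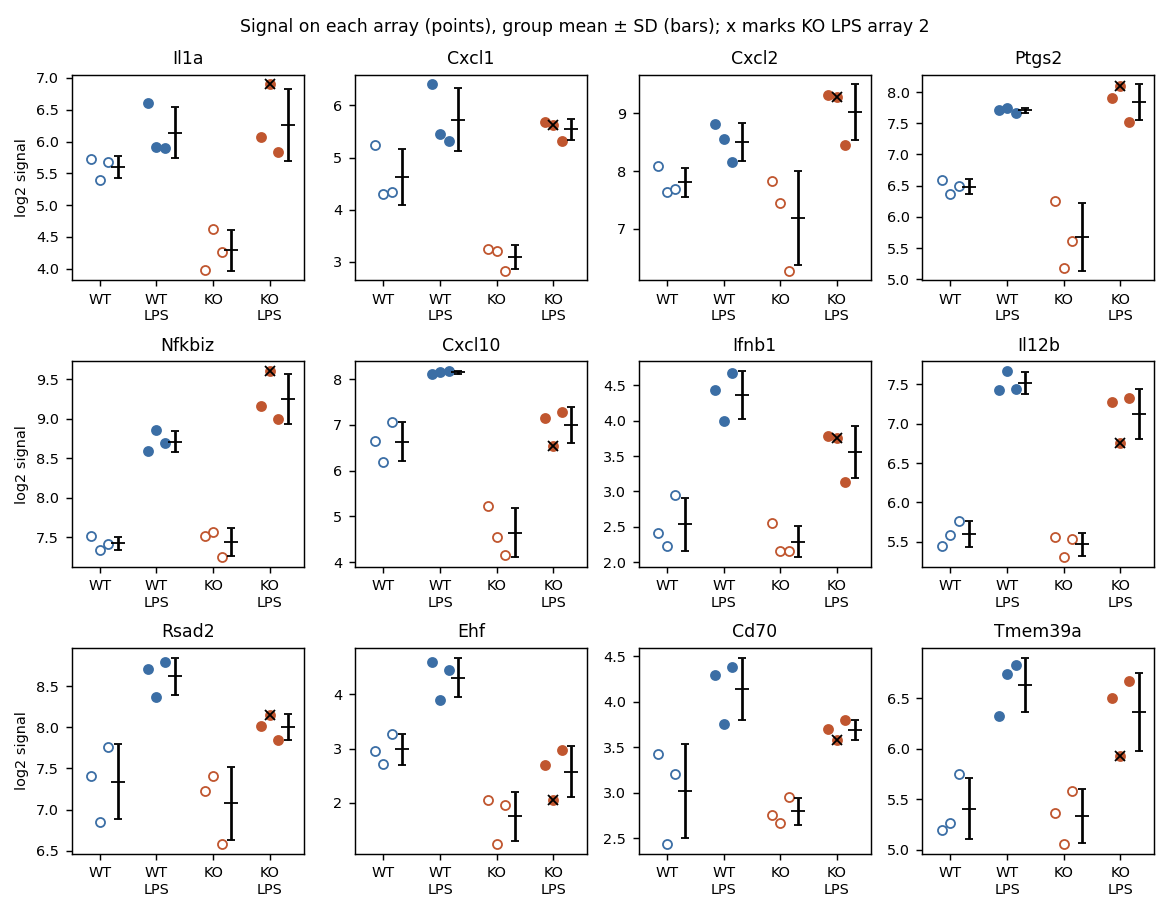
Log2 signal of the 12 LPS-induced genes named for the direction of their difference, in unstimulated (open) and LPS (filled) WT and KO arrays, with group mean ± SD (n = 3 arrays) and a cross on KO LPS array 2. For Il1a, Cxcl1 and Ptgs2 the unstimulated KO arrays lie below all unstimulated WT arrays and the LPS arrays of the genotypes overlap, while for Nfkbiz the unstimulated arrays overlap and all KO LPS arrays are higher.

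A pair of atypical IkB genes had larger estimated responses in KO, which did not pass the test after adjustment. Nfkbiz encodes IkB-zeta, a nuclear NF-kB cofactor needed for secondary response genes such as Il6. Its signals were 7.51, 7.34 and 7.42 in unstimulated WT, 8.59, 8.85 and 8.69 in WT with LPS, 7.52, 7.57 and 7.24 in unstimulated KO, and 9.16, 9.61 and 8.99 in KO with LPS. The unstimulated genotypes overlapped and all KO LPS arrays were above the WT LPS arrays. Nfkbiz rose in both genotypes, by 1.29 ± 0.15 in WT (limma adjusted p = 0.00554) and by 1.81 ± 0.15 in KO (adjusted p = 0.000673). The difference of 0.52 ± 0.22 (limma unadjusted p = 0.0324, adjusted p = 0.969) was 0.35 without KO LPS array 2 (limma unadjusted p = 0.0688, adjusted p = 0.999), and the other 2 probe sets gave 0.21 and 0.54. Nfkbid, which encodes the related IkB-NS, rose by 1.27 ± 0.16 in KO (limma adjusted p = 0.00442) beside 0.67 ± 0.16 in WT, a difference of 0.60 ± 0.23 that was 0.57 without that array. The classical inhibitor gene Nfkbia differed by 0.06 ± 0.24 (95% interval −0.47 to 0.59), with responses of 0.86 and 0.92, and by 0.30 without that array.

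Cxcl10 and Ccl4, chemokines for T cells and for monocytes and NK cells, were lower in KO before LPS and closer to WT after it. Cxcl10 signals were 6.64, 6.20 and 7.06 in unstimulated WT, 8.11, 8.16 and 8.17 in WT with LPS, 5.23, 4.56 and 4.16 in unstimulated KO, and 7.16, 6.54 and 7.28 in KO with LPS. The KO arrays were below the WT arrays in both stimulations, with no overlap. LPS raised Cxcl10 in KO by 2.35 ± 0.28 (limma adjusted p = 0.00225), and the value in WT was 1.52 ± 0.28 (adjusted p = 0.063). The difference of 0.83 ± 0.39 (95% interval −0.02 to 1.68) was 1.06 without KO LPS array 2. For Ccl4 the response was 1.11 ± 0.27 in WT and 1.84 ± 0.27 in KO, a difference of 0.73 ± 0.39 that was 1.00 without that array. Its KO signals ran from 6.29 to 7.07 unstimulated and from 7.88 to 8.75 with LPS, below all WT arrays of the same stimulation (7.78 to 8.67 and 9.30 to 9.48).

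Il6, a proposed miR-142 target that encodes interleukin-6, had the strongest LPS response of the named cytokine genes, and its difference between genotypes rested on 1 array. Its signals were 2.16, 2.00 and 2.42 in unstimulated WT, 4.78, 4.22 and 4.55 in WT with LPS, 2.56, 2.17 and 2.18 in unstimulated KO, and 5.31, 6.18 and 4.56 in KO with LPS. KO LPS array 2 was the highest, and the genotypes overlapped in both stimulations. Il6 rose by 2.33 ± 0.31 in WT (limma adjusted p = 0.00861) and by 3.04 ± 0.31 in KO (adjusted p = 0.000855). The difference of 0.71 ± 0.44 (95% interval −0.24 to 1.66) was 0.30 without KO LPS array 2. Unstimulated means were under the level of the median gene in both genotypes, so the sizes of the rise are uncertain at the low end.

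Tnf and Il10, a pro-inflammatory and an anti-inflammatory cytokine gene, also gave estimated differences above 0. Tnf rose by 1.40 ± 0.17 in WT (limma adjusted p = 0.00554) and by 1.75 ± 0.17 in KO (adjusted p = 0.000775), a difference of 0.35 ± 0.24 (95% interval −0.17 to 0.88), or 0.40 without KO LPS array 2. Il10 had a response of 1.60 ± 0.30 in WT (adjusted p = 0.076 by limma) and 2.32 ± 0.30 in KO (adjusted p = 0.00442), a difference of 0.72 ± 0.43, or 0.96 without KO LPS array 2. After LPS its KO minus WT value was 0.00 ± 0.30, with KO at 5.85, 4.83 and 5.26 and WT at 5.41, 5.26 and 5.26.

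Ifnb1, the gene of interferon beta, was, of the named LPS-induced genes with a smaller estimated response in KO, the one with the smallest p at the probe set used for each gene. Its signals were 2.42, 2.23 and 2.96 in unstimulated WT, 4.44, 4.0 and 4.67 in WT with LPS, 2.55, 2.16 and 2.16 in unstimulated KO, and 3.79, 3.76 and 3.13 in KO with LPS. The unstimulated arrays overlapped, at signals under the median gene, and all KO LPS arrays were below the WT LPS arrays. Ifnb1 rose by 1.84 ± 0.23 in WT (limma adjusted p = 0.00645) and by 1.27 ± 0.23 in KO (adjusted p = 0.0401). The difference was −0.57 ± 0.33 (95% interval −1.28 to 0.15, limma unadjusted p = 0.112, adjusted p = 0.969), and −0.67 without KO LPS array 2. Rsad2, an interferon-induced antiviral enzyme gene, had responses of 1.28 ± 0.24 and 0.93 ± 0.24 and a difference of −0.35 ± 0.34. All of its KO LPS arrays (8.02, 8.15 and 7.84) were below the WT LPS arrays (8.71, 8.37 and 8.79).

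The other genes named in the same direction were Il12b, Ehf, Cd70 and Tmem39a. Il12b, which encodes the p40 subunit of interleukins 12 and 23, rose by 1.91 ± 0.16 in WT (limma adjusted p = 0.000503) and by 1.65 ± 0.16 in KO (adjusted p = 0.000673). Its signals after LPS were 7.43, 7.67 and 7.44 in WT and 7.27, 6.75 and 7.32 in KO, with no overlap and with KO LPS array 2 lowest. The difference of −0.26 ± 0.22 (95% interval −0.74 to 0.22) became −0.08 without that array. Ehf, an ETS-family transcription factor gene, differed by −0.50 ± 0.39, or −0.24 without it, and its KO minus WT value after LPS was −1.74 ± 0.27 (limma adjusted p = 0.0215). Its probe sets gave unequal values. The other 3 read −0.77, −0.83 and −0.19 (limma unadjusted p = 0.00324, 0.00349 and 0.347) at mean signals under the median gene, and the mean of all probe sets gave −0.57 (limma unadjusted p = 0.00608). The probe set used for Ehf, with a mean signal of 2.91, was under the median gene (3.14) as well. Cd70, the ligand of the T cell co-stimulator CD27, differed by −0.23 ± 0.32, and Tmem39a, a transmembrane protein gene, by −0.19 ± 0.31. Tmem39a changed sign to 0.03 without KO LPS array 2.

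Whether the level before or after LPS carried a difference was read from the KO minus WT values in each stimulation, whose difference is the difference in response. A gene was counted as carried mainly by one of them where that value was at least 2 times the other in size. Of the 48 LPS-induced genes, 15 (31.2%) differed mainly when unstimulated, 9 (18.8%) mainly after LPS and 24 (50%) in both. Over all 17097 genes the shares were 23.6%, 33.8% and 42.6%. The LPS-induced genes as a group were lower in KO before LPS, with a median KO minus WT value of −0.48, and nearer to WT after it, at −0.21, or −0.10 without KO LPS array 2. Over all genes these medians were 0.00 and −0.03. Without KO LPS array 3, where 49 genes were chosen anew as LPS-induced, the count carried mainly after LPS was 16.

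The larger estimated responses of Cxcl1, Il1a, Ptgs2, Nfkbid, Il10 and Tnf were carried mainly by a lower unstimulated KO level. KO minus WT for Cxcl1 was −1.53 ± 0.29 unstimulated (limma adjusted p = 0.0615) and −0.19 ± 0.29 after LPS. For Il1a the values were −1.31 ± 0.27 (adjusted p = 0.0869 by limma) and 0.13 ± 0.27, and for Ptgs2 −0.81 ± 0.22 and 0.13 ± 0.22. None of these unstimulated differences passed the threshold in its own test, which called 43 genes (0.252%), with 35 higher (0.205%) and 8 lower in KO (0.0468%). The test used the same arrays as the difference in response. Cxcl10 and Ccl4 did pass it. KO minus WT in unstimulated cells was −1.99 ± 0.28 for Cxcl10 (limma adjusted p = 0.0173) and −1.72 ± 0.27 for Ccl4 (adjusted p = 0.0248), and after LPS the values were −1.16 ± 0.28 (adjusted p = 0.102) and −0.99 ± 0.27 (adjusted p = 0.161).

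Nfkbiz, Il6, Adm, Ifnb1, Rsad2 and Il12b were carried mainly by the level after LPS. KO minus WT was 0.02 ± 0.15 unstimulated and 0.54 ± 0.15 after LPS for Nfkbiz, 0.12 ± 0.31 and 0.83 ± 0.31 for Il6, and −0.24 ± 0.23 and −0.81 ± 0.23 for Ifnb1. For Il6 the value after LPS was 0.41 without KO LPS array 2. Il12b had −0.13 ± 0.16 unstimulated and −0.40 ± 0.16 after LPS. Without that array its value after LPS was −0.21, less than 2 times the unstimulated one, so its class rested on that array. Adm, which encodes the vasoactive peptide adrenomedullin and is induced by hypoxia, was the only one of the 6 called after LPS, at 1.08 ± 0.16 (limma adjusted p = 0.0195). The comparison of genotypes after LPS called 76 genes in all (0.445%), with 47 higher (0.275%) and 29 lower in KO (0.17%). Adm signals were 1.76, 1.76 and 1.95 in unstimulated WT, 2.22, 2.00 and 2.45 in WT with LPS, 2.37, 2.15 and 2.12 in unstimulated KO, and 3.54, 2.98 and 3.39 in KO with LPS. All KO LPS arrays were above every other array. Its response was 0.40 ± 0.16 in WT and 1.09 ± 0.16 in KO, a difference of 0.69 ± 0.22, or 0.86 without KO LPS array 2 (limma unadjusted p = 0.00807 and 0.000614, adjusted p = 0.969 and 0.999). Signals were under the median gene in the other 3 groups.

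**Figure D3:**
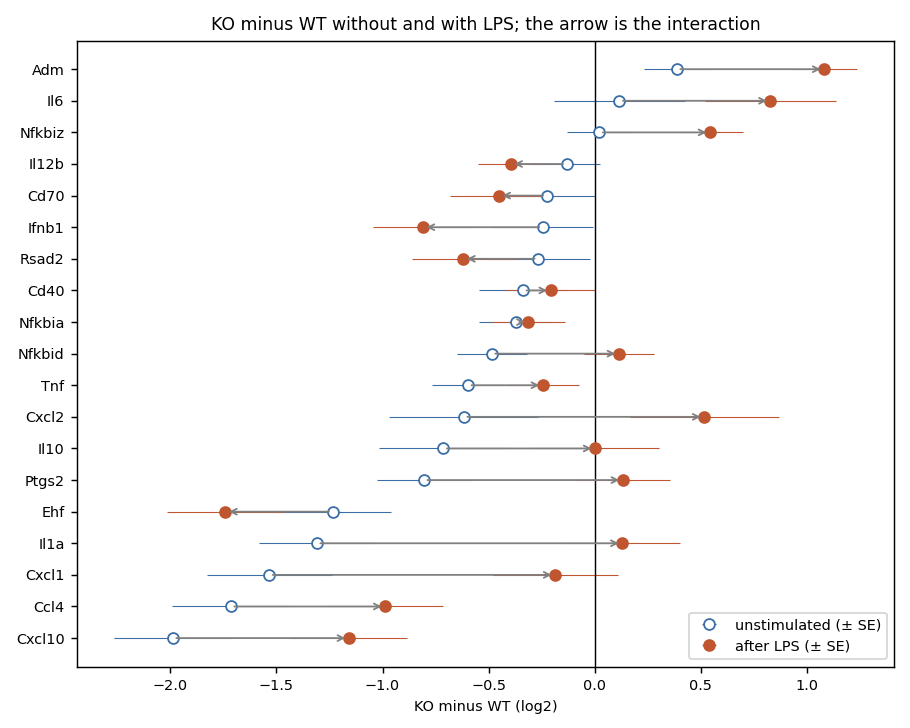
KO minus WT (log2, ± SE, n = 3 arrays per group) for named genes of the LPS response, unstimulated (open) and after LPS (filled), with an arrow from one to the other whose length is the difference in response. Cxcl1, Il1a and Ptgs2 start well below 0 and end near 0, Cxcl10 and Ccl4 stay below 0, and Nfkbiz and Il6 start near 0 and end above it.

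The labels number the arrays 1 to 3 within each group, and arrays of 1 number within a genotype resembled each other across stimulations, so the LPS response was also taken within numbers. Cxcl1 responses by number were 1.17, 1.15 and 0.97 in WT and 2.44, 2.41 and 2.48 in KO. They were closely alike within a genotype and separate between genotypes. With the array numbers as a fixed replicate block within genotype, limma gave Cxcl1 an unadjusted p of 3.26e-06 and an adjusted p of 0.0558, and 0 genes passed (0%). Leaving out both arrays of KO number 2 as well gave a difference of 1.36 with a limma adjusted p of 0.0294, and Cxcl1 was then the 1 gene called (0.00585%). As a random block, the same numbers gave Cxcl1 a limma p of 0.00215 and an adjusted p of 0.844.

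Il1a responses by number were 0.87, 0.51 and 0.23 in WT and 2.08, 2.28 and 1.57 in KO, those of Cxcl2 were 0.72, 0.93 and 0.47 against 1.5, 1.83 and 2.19, and those of Nfkbid were 0.72, 0.70 and 0.59 against 1.03, 1.40 and 1.37. In each of the 3 genes every KO response exceeded every WT response. Ifnb1 was the reverse, with WT responses of 2.02, 1.78 and 1.71 and KO responses of 1.24, 1.59 and 0.98. Il1a, Cxcl2 and Nfkbid, like Cxcl1, were named for small p-values of this difference on the same arrays. Their separation by number is therefore not separate evidence. Among the 48 LPS-induced genes, 12 (25%) had all KO responses above all WT responses and 2 (4.17%) had all of them below. Over all genes these shares were 4.81% and 7.56%. Under the fixed replicate block, 11 of the 48 had a larger and 2 a smaller response in KO at an unadjusted limma p under 0.05, against 1.96% and 3.48% of all genes. The 2 were Ifnb1 (paired 95% interval −0.99 to −0.15, limma unadjusted p = 0.0135, adjusted p = 0.811) and Ehf (−0.91 to −0.10, limma unadjusted p = 0.0195, adjusted p = 0.811). The paired intervals of Cxcl10 (0.11 to 1.55), Ccl4 (0.17 to 1.29) and Il10 (0.14 to 1.29) lay above 0. None of the 13 passed adjustment over 17097 genes. The medians of the LPS-induced genes by number were 1.23, 1.29 and 1.09 in WT and 1.34, 1.55 and 1.51 in KO.

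**Figure D4:**
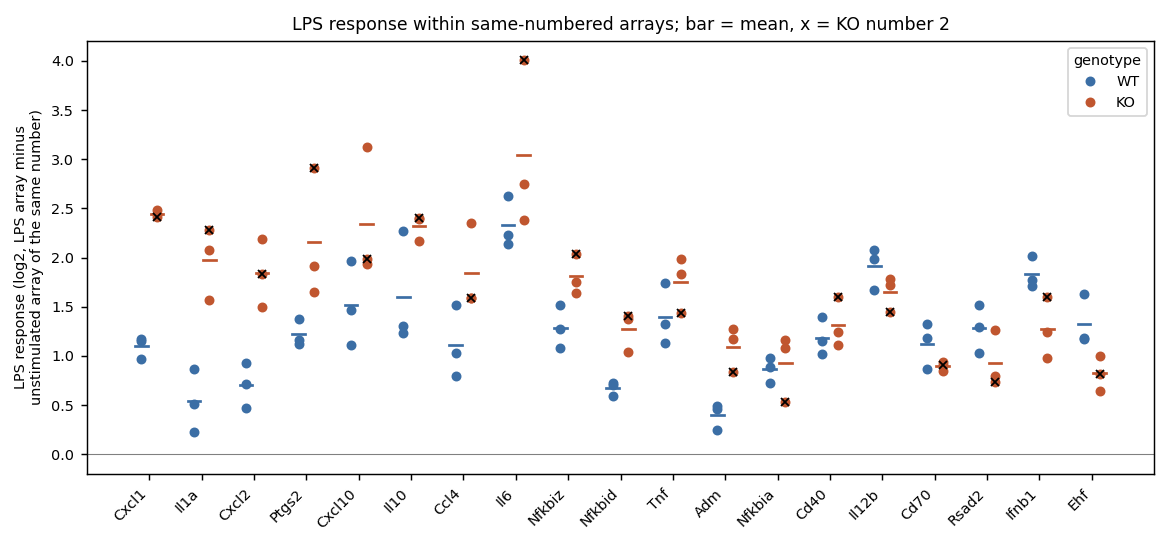
LPS response of named genes within arrays of the same number (log2 signal of the LPS array minus that of the unstimulated array), one point a number, with the mean as a bar and a cross on KO number 2. The KO points of Cxcl1 lie between 2.41 and 2.48 and its WT points between 0.97 and 1.17, while for Il6 the KO response of number 2 (4.0) stands above the other two.

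Among functional groups, the 28 measured of 32 inflammatory cytokine genes had a median difference in response of 0.24 (0.19 without KO LPS array 2), with 20 above 0 and 8 below. Over all genes, the background for this list and those that follow, 7791 of 17097 (45.6%) were above 0 and 9306 below. For the cytokine genes, unadjusted limma p-values were under 0.05 for 3 with a more positive and 1 with a more negative response in KO. The shares over all genes were 1.3% and 2.44%. No member was called in this or any other list (0%). LPS itself raised 15 of the 28, against 0.702% of all genes. The 1 more negative cytokine gene was Ccl5, which is also a marker of NK and T cells. Its signals were 8.61, 8.51 and 8.85 in unstimulated WT, 9.29, 9.41 and 9.54 in WT with LPS, 8.72, 8.97 and 9.02 in unstimulated KO, and 8.98, 8.56 and 9.32 in KO with LPS. WT separated with LPS and KO did not, a difference of −0.71 ± 0.24 (−0.51 without KO LPS array 2, limma unadjusted p = 0.0127 and 0.0219, adjusted p = 0.969 and 0.999). Of the 14 measured NK cell markers, a list that holds Ccl5 itself, 5 were called higher in KO in each stimulation. The share over all genes was 0.205% unstimulated and 0.275% after LPS. The part of NK cell markers in Ccl5 was not tested.

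Of 20 measured NF-kB subunit and feedback genes, 11 were above 0 and the median was 0.06 (0.11 without KO LPS array 2). The 26 type I interferon genes had a median of −0.12 (−0.17 without KO LPS array 2), with 15 below 0, against 9306 of all 17097 genes. The other 11 were above 0. The highest was the LPS-induced gene Ifih1 at 0.86 (fixed replicate block within genotype, limma unadjusted p = 0.0173, adjusted p = 0.811). With the arrays taken as unpaired, 3 of the 26 were under an unadjusted limma p of 0.05, all more negative, against 2.44% of all genes in that direction. Oas3, an antiviral RNA sensor enzyme gene, gave the smallest p. Its signals were 3.07, 2.93 and 2.84 in unstimulated WT, 2.81, 3.17 and 3.14 in WT with LPS, 3.96, 3.86 and 3.23 in unstimulated KO, and 3.04, 2.62 and 2.7 in KO with LPS. KO arrays were the highest before LPS, and KO and WT overlapped after it. The difference was −0.99 ± 0.26 (95% interval −1.56 to −0.42, limma unadjusted p = 0.0025, adjusted p = 0.969) at signals near or under the median gene. Mx1, which encodes a dynamin-like antiviral protein, responded by 0.35 ± 0.12 in WT and by −0.04 ± 0.12 in KO. Its difference was −0.39 ± 0.18, or −0.35 without KO LPS array 2 (limma unadjusted p = 0.0459 and 0.0809).

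Upstream, the 17 genes of TLR4 and its adaptors had a median of −0.03 (−0.06 without KO LPS array 2) and 0 under an unadjusted limma p of 0.05. The 20 DC maturation and migration genes had a median of 0.04, or 0.05 without that array. Cd40, the receptor for T cell help, responded by 1.19 ± 0.21 in WT (limma adjusted p = 0.0606) and by 1.32 ± 0.21 in KO (adjusted p = 0.0148), a difference of 0.13 ± 0.30 (95% interval −0.51 to 0.77), or 0.24 without KO LPS array 2. Cd86, a B7 co-stimulator gene, differed by −0.10 ± 0.27 (95% interval −0.69 to 0.49), which was 0.15 without KO LPS array 2. Tnfrsf9 encodes the co-stimulatory receptor 4-1BB and was the 1 maturation gene under the unadjusted threshold. Its signals were 3.75, 3.76 and 3.88 in unstimulated WT, 4.30, 3.94 and 4.26 in WT with LPS, 4.88, 4.80 and 4.64 in unstimulated KO, and 4.71, 3.88 and 4.55 in KO with LPS. KO was higher than WT on all unstimulated arrays and overlapped WT after LPS. Within array numbers the WT responses were all above 0 (0.55, 0.18 and 0.38) and the KO responses all below it (−0.16, −0.93 and −0.09). Its difference was −0.77 ± 0.26, or −0.51 without KO LPS array 2 (limma unadjusted p = 0.0123 and 0.012, adjusted p = 0.969 and 0.999). The other 2 probe sets of the gene, at signals under the median gene, both gave 0.02, and the mean of all probe sets gave −0.24.

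Antigen presentation genes depended on the array that stood apart. The 13 measured MHC class I presentation genes had a median difference of −0.42, which was −0.11 without KO LPS array 2. Their median signal was 6.30 on that array and 7.16 to 7.47 on the other 11. For the 12 MHC class II genes the median went from −0.24 to −0.07 without it, with a list signal of 6.39 against 7.0 to 7.27. Calr, which encodes the chaperone calreticulin, and Tapbp, which encodes tapasin, went from −0.58 to −0.31 and from −0.50 to −0.28. What part RNA quality had in these values was not tested.

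Metabolic groups showed small medians. They were −0.21 for 17 glycolysis genes (15 of them below 0), 0.14 for 18 hypoxia genes (13 above 0), 0.02 for 18 fatty acid oxidation genes, 0.02 for 17 cholesterol synthesis genes and −0.09 for 17 NRF2 antioxidant genes. Without KO LPS array 2 they were, in the same order, −0.16, 0.08, −0.07, −0.00 and −0.04. Pfkl, a phosphofructokinase gene, was the 1 glycolysis gene under the unadjusted limma threshold, at −0.41 ± 0.19, or −0.32 without KO LPS array 2 (limma unadjusted p = 0.105). Its other 2 probe sets gave −0.18 and −0.09. Cpt1a, the carnitine shuttle gene that sets the entry of fatty acids into mitochondria, responded by −0.37 ± 0.25 in WT and −0.06 ± 0.25 in KO, a difference of 0.31 ± 0.36 (95% interval −0.47 to 1.09) that was 0.10 without KO LPS array 2 and 0.08 without WT LPS array 3. Acsl3, which activates long-chain fatty acids, was higher in KO in both stimulations, by 1.27 ± 0.17 (limma adjusted p = 0.016) and 1.01 ± 0.17 (adjusted p = 0.024), and its difference in response was −0.26 ± 0.24, with 1 of its 3 probe sets of the opposite sign at 0.46.

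The 25 immediate early genes and 27 cell cycle genes had medians of 0.05 and −0.09, or 0.05 and −0.18 without KO LPS array 2. Mcm5, a DNA replication helicase gene, was the 1 cell cycle gene under the unadjusted limma threshold, at −0.40 ± 0.18, or −0.28 without KO LPS array 2. Its second probe set gave 0.35 and the mean of both −0.03, at group means under the median gene, so no direction is given for it. Of 17 proposed miR-142 targets, 14 were measured, with a median of 0.07 (−0.06 without KO LPS array 2), 7 above 0 and 7 below. Tgfbr1, the type I TGF-beta receptor gene, gave signals of 6.51, 6.55 and 6.62 in unstimulated WT, 6.23, 6.16 and 6.01 in WT with LPS, 7.08, 7.54 and 7.36 in unstimulated KO, and 6.95, 7.66 and 7.28 in KO with LPS. KO was above WT throughout, by 1.16 ± 0.17 after LPS (limma adjusted p = 0.0195). Its difference in response was 0.40 ± 0.24 (0.21 without KO LPS array 2), and the other 2 probe sets of the gene gave −0.07 and −0.78, so no direction is given for it.

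The difference in response was also taken over marker lists of the cell types a splenic DC sample can hold, none of whose members was called. Each median is followed in brackets by its value without KO LPS array 2. Medians of DC genes were −0.17 (0.03) for 9 genes shared by DCs, −0.19 (−0.07) for 12 type 1 DC (cDC1) genes, −0.08 (−0.08) for 14 type 2 DC genes and −0.11 (0.02) for 11 plasmacytoid DC genes. Those of other cells were −0.12 (−0.05) for 14 NK cell genes, −0.03 (0.21) for 13 B and plasma cell genes, 0.01 (0.14) for 11 T cell genes, −0.14 (−0.15) for 19 macrophage and monocyte genes and −0.05 (0.04) for 13 erythroid and platelet genes. The lists of B and plasma, plasmacytoid DC, erythroid and platelet, and shared DC genes changed sign with that array. Xcr1, the chemokine receptor that defines cDC1, differed by −0.48 ± 0.21 (limma unadjusted p = 0.0427, adjusted p = 0.969), or −0.39 without KO LPS array 2 (limma unadjusted p = 0.0889). Xcr1 was lower in KO after LPS at 3.55, 3.20 and 3.39 against 4.19, 4.12 and 4.16 in WT (KO minus WT −0.78 ± 0.15, limma adjusted p = 0.0494). The 14 neutrophil genes had a median difference in response of −0.37, or −0.76 without KO LPS array 2, and a median KO minus WT value of 3.14 unstimulated and 2.84 after LPS. None of the 14 had a 95% interval for the difference in response between −1 and 1.

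**Figure D5:**
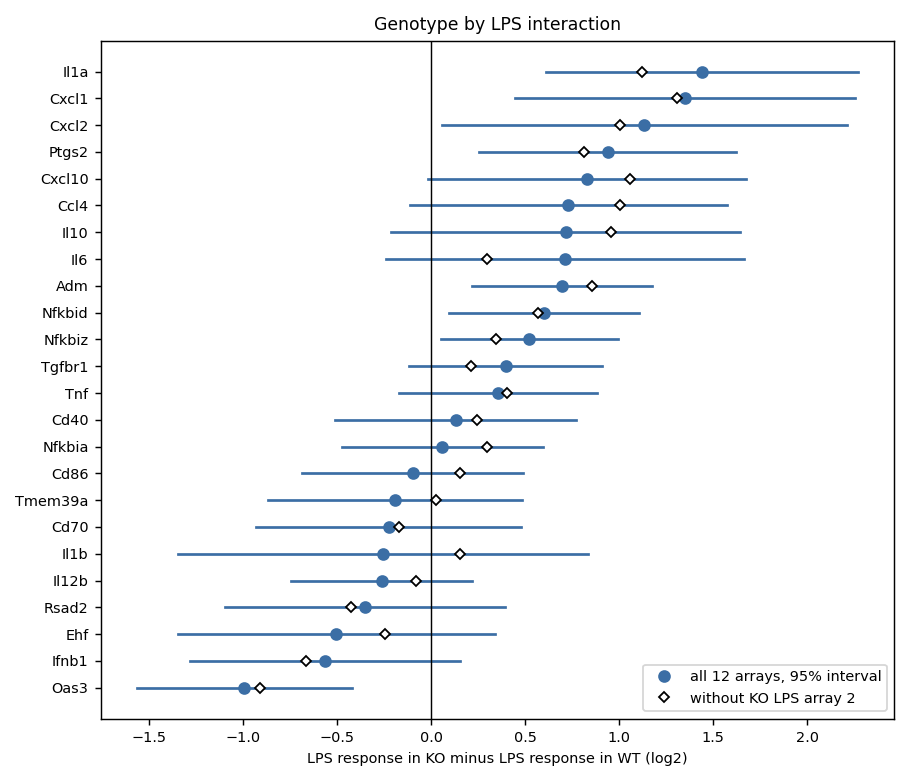
Difference in LPS response, KO minus WT (log2), for named genes, as a point with its 95% interval over all 12 arrays, and as a diamond without KO LPS array 2. Il1a, Cxcl1, Cxcl2, Ptgs2, Adm, Nfkbid and Nfkbiz have intervals above 0 before adjustment for 17097 genes and Oas3 has one below it, while the diamonds of Cd86, Il1b and Tmem39a lie on the other side of 0 from their points.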

How the data were processed

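Gene expression was measured on 12 Affymetrix arrays, which the authors normalised with RMA, per the submitters' processing notes, in a version that the sources used here do not give. The deposited values are log2 signals. Their array medians ran from 2.65 to 2.72. Of 45141 probe sets, 104 controls, 551 with several symbols and 15588 without a symbol were left out. Of the 28898 others, 28689 matched a RefSeq gene by Entrez number, and the probe set with the highest mean stood for each of 17097 genes (7180 had more than 1). No filter on dim genes was applied.

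All contrasts came from 1 fit of 4 group means with limma 3.58.1 in R 4.3.3 (lmFit and eBayes, 8 residual degrees of freedom), adjusted by Benjamini-Hochberg over all genes and called under 0.05. Errors after ± are SEs, and intervals cover 95%. The fit was tested on simulated data with independent normal errors of the same SD in all groups. These held no outlying array and no correlated array numbers, so that test does not cover either feature of the data. Named genes were up to 6 per direction with the smallest interaction p among LPS-induced genes (predicted models, small RNAs and genes under the median gene left out), up to 2 per list, and Il6, Il12b, Tnf, Il1b, Il10, Ifnb1, Cxcl10, Ccl4, Cd40, Cd86, Nfkbia, Tgfbr1, Cpt1a and Acsl3. The comparison, the genes and the lists were chosen with earlier results of these data known. Alternatives covered each array left out, array weights, replicate blocks, scaling, the choice of probe set, a filter on dim genes, moderation settings and the thresholds.

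The labels call the samples biological replicates but do not say whether an unstimulated and an LPS array of 1 number share a mouse. With group means removed, the correlation of such arrays was 0.385, 0.230 and 0.422 for the WT numbers and 0.305, 0.284 and 0.440 for the KO numbers, so the numbers were treated as pairs in the replicate block (consensus correlation 0.174 as a random block). Between WT and KO arrays of 1 number it was −0.009 to 0.023 for number 1, 0.038 to 0.161 for number 2 and 0.143 to 0.224 for number 3. What arrays of 1 number share was not tested.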

Additional observations from a re-analysis of the deposited data

How the results depend on the processing

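No gene was called for the difference in response under any of the 12 fits without 1 array, nor under array weights, quantile normalisation, median centring, the filter on dim genes, another choice of probe set, trended and robust moderation or a replicate block with all arrays kept. Only the fixed block without both arrays of KO number 2, added after seeing the data, called 1 gene, Cxcl1, which is also LPS-responsive. With each array left out, the count at an unadjusted limma p under 0.05 (639) ran from 504 to 1182. It was 962 with the numbers as a random block, 983 with the random block and KO LPS array 2 left out, and 299 among the 9078 genes kept by the filter on dim genes. The median difference of LPS-induced genes (0.292) ran from 0.143 to 0.464 without 1 array and was 0.156 under the fixed block without KO number 2. It was 0.441 where the averaged change had to reach 2, with 100% above 0 against 72.9%. The size of that smaller set is not given here, so its 100% cannot be weighed against the 72.9%. Of the named genes, only Il6 (averaged change 2.69) reached 2. The share of 72.9% ran from 60.8% to 84.2% without 1 array. In each fit the LPS-induced genes were chosen anew, with 38 to 52 genes where 1 array was left out. These medians and shares, and the counts that follow, therefore do not trace the same 48 genes. Counts carried mainly by the unstimulated level (15) or by the level after LPS (9) ran from 11 to 17 and from 8 to 16 without 1 array, and were 9 and 5 with a ratio of 3. They could not be estimated under the fixed block within genotype, and no LPS-repressed class had a median.

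Of 1599 values of the 67 named genes under alternatives, 1580 kept the sign of the difference, and 58 genes never changed it. Without 1 array, values spanned 0 for Cd40 (−0.121 to 0.30), Cd70 (−0.428 to 0.068), Cd86 (−0.236 to 0.151), Il1b (−0.711 to 0.155), Nfkbia (−0.095 to 0.296) and Tmem39a (−0.366 to 0.026). With the random block and KO LPS array 2 left out, Cd86 was 0.121 and Il1b 0.193. Under the fixed block without KO number 2, Cd86 was 0.029, Il1b 0.311 and Cd40 −0.008. Array weights gave Cd86 0.093. The mean of probe sets gave Acsl3 0.053 and Tgfbr1 −0.153, and the probe set with the largest SD gave Bcl11b 0.207. The cause was not tested. The replicate block changed no other call of the difference. With 3 arrays a group, the interval of a typical LPS-induced gene reached 0.75 to either side.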

Other observations

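Among the 137 LPS-responsive genes, 22 had an unadjusted limma p under 0.05 for the difference in response, and the genes in this paragraph were picked from them after their values were seen. Cdk5r1, which encodes an activator of the kinase CDK5, had the smallest p. Its mean was 3.59 before and 4.06 after LPS in WT, and 3.62 before and 5.05 after LPS in KO, a KO minus WT value of 0.03 before and 0.98 after LPS (limma adjusted p = 0.98 and 0.024). The response was 0.48 in WT and 1.43 in KO (adjusted p = 0.00162 by limma in KO), a difference of 0.95 ± 0.23 (limma unadjusted p = 0.00119, adjusted p = 0.969). Mir17hg, the host transcript of the miR-17 to miR-92 cluster, responded by 0.26 in WT and 1.08 in KO. Pde4b, a cyclic AMP phosphodiesterase gene, responded by 0.48 and 1.07. Tank, a regulator of TRAF signalling, responded by 0.34 and 0.76.

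Smaller rises in KO were fewer. Bcl2l1, which encodes the survival protein Bcl-xL, rose in WT by 0.77 (limma adjusted p = 0.0137) and responded by 0.29 in KO, a difference of −0.48 ± 0.16. Gypc, which encodes glycophorin C, rose in WT by 0.91 (limma adjusted p = 0.00645) beside 0.50 in KO, a difference of −0.41 ± 0.16. Among genes lower after LPS, S1pr1, the sphingosine-1-phosphate receptor for egress from lymphoid organs, changed by −0.52 in WT and by −1.31 in KO (limma adjusted p = 0.0476 in KO), and Pltp, a phospholipid transfer protein gene, by −0.29 and −0.86. None of these differences passed adjustment over 17097 genes.

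A separate limma fit took all 45037 probe sets that are not controls. It held 0 calls for the difference in response (adjusted p under 0.05) and 1833 probe sets at an unadjusted p under 0.05. The 16139 of them without a single symbol held 0 calls and 649 at an unadjusted p under 0.05, a share close to that of all probe sets.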
